A study of Penicillium oxalicum with 18 samples.

Results

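Transcript levels of 2 genes of starch breakdown, AmyR (PDE_03964) and the glucoamylase Amy15A (PDE_01201), are described in the filamentous fungus Penicillium oxalicum, a mould that secretes enzymes for plant polysaccharides. Both were taken by locus tag from a table of 9277 genes, 8681 of which passed a filter of at least 1 FPKM in at least 3 libraries, the 2 genes among them. FPKM counts fragments relative to the length of the gene and to the mapped fragments of the library. The table pairs its tags with no names, so the names of both genes were taken as given and could not be checked against a sequence. The 6 groups, of 3 libraries each, were a strain deleted for hap3 (Dhap3), a strain deleted for hap5 (Dhap5) and the wild type strain 114-2, each grown on bran with cellulose or on glucose. All mycelia shared a preculture of 24 h at 30 °C on 2% glucose and were then moved for 24 h to modified Mendal's medium, with either 1% bran and 1% microcrystalline cellulose or 2% glucose. The labels do not say how many transformants stand behind each deletion strain, nor whether replicates came from separate cultures. The p-values therefore reflect only variation among these libraries, which may be technical.

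AmyR is a zinc cluster transcription factor, known from Aspergillus species as the activator of genes for amylases, glucoamylase and alpha-glucosidases, and it responds there to small sugars released from starch such as maltose and isomaltose. Glucoamylase is a secreted enzyme that cuts glucose units from the ends of starch chains, and in Aspergillus its gene is a target of AmyR. Hap3 and Hap5 are subunits of the CCAAT-binding Hap complex of fungi, which binds the CCAAT motif in promoters as an assembly that needs each of its core subunits.

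Library totals ran from 966280 to 1202683 FPKM, and between 598 and 959 genes were listed at 0 in a library. The read depth behind these values is unknown, so no counting interval is given. Genes were sought that were at least 4 times lower in every library of 1 deletion strain than in each of the other 12 libraries. With at least 2 FPKM required in those 12, 1 gene per strain was found. It reached at most 12.18 FPKM in Dhap3, against at least 134.38 FPKM elsewhere, and at most 2.22 FPKM in Dhap5, against at least 118.83 FPKM elsewhere. These genes were found by their values under the strain labels and carry no names in the table. Neither is known to be hap3 or hap5, so the search cannot check the deletion labels.

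AmyR was abundant in wild type on bran and cellulose and low in both deletion strains on that medium. It stood at 6.05, 5.82 and 5.14 FPKM in the Dhap3 libraries, at 6.21, 7.26 and 4.64 FPKM in the Dhap5 libraries and at 349.17, 293.45 and 343.86 FPKM in the wild type libraries. The groups did not overlap: the highest deletion library, 7.26 FPKM, lay far under the lowest wild type library. The mean was 5.67 ± 0.473 FPKM in Dhap3 and 6.04 ± 1.32 FPKM in Dhap5, against 328.8 ± 30.8 FPKM in wild type (SD, n = 3 each). These means are 1.72% and 1.84% of the wild type mean. On the log2(FPKM + 1) scale, on which all changes below are given and which understates the difference between 2 groups where levels are low, AmyR fell by 5.63 (SE 0.158, limma adjusted p = 1.37e-13) in Dhap3. It fell by 5.56 (SE 0.158, limma adjusted p = 1.33e-13) in Dhap5. Calls required an adjusted p under 0.05 together with a change of at least 1, which 13.4% of the tested genes met downward in Dhap3 and 13.2% in Dhap5. Of the 8681 genes tested, 54 had a lower change than AmyR in each of these comparisons. In bulk mycelium, fewer hyphae with the transcript and less transcript per hypha cannot be told apart.

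Amy15A was among the most abundant transcripts of wild type on bran and cellulose, and its level there was likewise low in both deletion strains. It stood at 44.74, 34.76 and 30.3 FPKM in the Dhap3 libraries, at 33.33, 34.03 and 26.97 FPKM in the Dhap5 libraries and at 1718.04, 1491.27 and 1892.67 FPKM in the wild type libraries. No deletion library came near the wild type range, while the 2 deletion strains overlapped each other. The mean was 36.6 ± 7.39 FPKM in Dhap3 and 31.44 ± 3.89 FPKM in Dhap5, against 1701 ± 201 FPKM in wild type (SD, n = 3 each). The means in the deletion strains are 2.15% and 1.85% of that in wild type. Amy15A fell by 5.51 (SE 0.179, limma adjusted p = 6.12e-13) in Dhap3. It fell by 5.71 (SE 0.179, limma adjusted p = 4.28e-13) in Dhap5. A lower change than that of Amy15A was seen in 60 genes in Dhap3 and 48 in Dhap5. Both comparisons use the same wild type libraries.

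**Figure D1:**
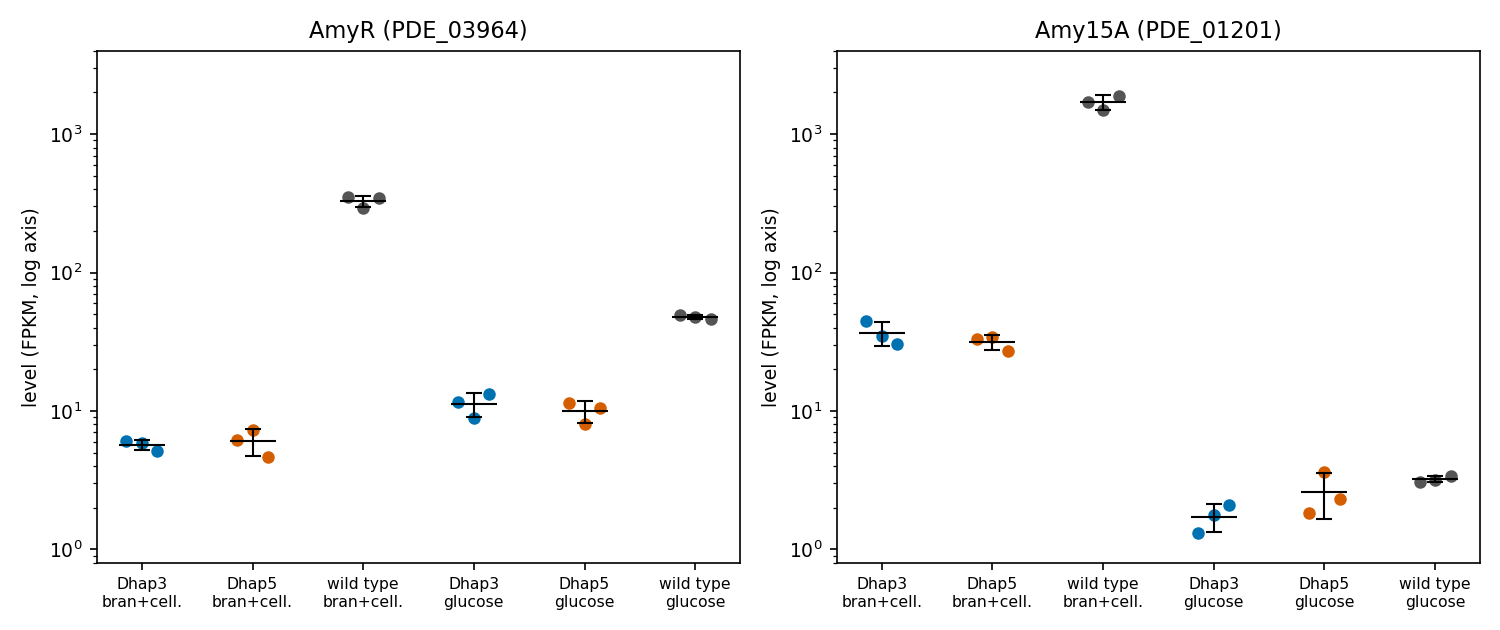
Levels of AmyR (left) and Amy15A (right) in FPKM, on a log axis, in the 6 groups. Points are libraries, horizontal bars the mean and error bars the SD (n = 3). Both genes were highest in wild type on bran and cellulose, at 328.8 and 1701 FPKM, and AmyR was lowest in the deletion strains on the same medium, whereas Amy15A was lowest on glucose.

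The place of the genes among all transcripts of a library does not depend on how libraries are scaled to each other. On bran and cellulose AmyR exceeded 20.2% to 23.2% of all genes in the 6 deletion libraries and 93.8% to 95% in the wild type libraries. Amy15A exceeded 49.9% to 62% of all genes in the deletion libraries and 99.3% to 99.5% in the wild type libraries. In the deletion strains AmyR thus lay low among the genes, and Amy15A near the middle. Places among genes do depend on the scaling by gene length, which would shift levels between genes for libraries of short tags. As a share of the FPKM total, Amy15A took 0.00273% to 0.00443% in the deletion libraries and 0.154% to 0.196% in the wild type libraries on this medium. On glucose AmyR exceeded 26.3% to 34.8% of all genes in the deletion libraries and 67.2% to 69.6% in the wild type libraries. Amy15A exceeded 14.9% to 19.5% of all genes in the deletion libraries and 22.8% to 23.4% in the wild type libraries on glucose.

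On glucose the 2 genes differed from each other: AmyR was lower in both deletion strains by a smaller margin than on bran and cellulose, and Amy15A was low in every strain. AmyR stood at 11.69, 8.9 and 13.27 FPKM in Dhap3, at 11.39, 7.98 and 10.48 FPKM in Dhap5 and at 49.18, 47.5 and 46.33 FPKM in wild type. The wild type libraries lay close together and above all deletion libraries. AmyR averaged 11.29 ± 2.21 FPKM in Dhap3 and 9.95 ± 1.77 FPKM in Dhap5, against 47.67 ± 1.43 FPKM in wild type (SD, n = 3 each), which is 23.7% and 20.9% of the wild type mean. It fell by 2.00 (SE 0.158, limma adjusted p = 3.55e-08) in Dhap3, where 8.74% of the tested genes were called lower. It fell by 2.17 (SE 0.158, limma adjusted p = 1.38e-08) in Dhap5, where 7.00% were.

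Amy15A on glucose stood at 1.32, 1.76 and 2.09 FPKM in Dhap3, at 1.84, 3.64 and 2.32 FPKM in Dhap5 and at 3.05, 3.19 and 3.38 FPKM in wild type. The Dhap3 libraries lay under the wild type libraries, and 1 Dhap5 library lay above them. The change was -0.64 (SE 0.179, 95% interval -1.02 to -0.25, limma adjusted p = 0.00635) in Dhap3, under the minimum change of 1 and so not called. After quantile normalization that change was -1.13 and was called. In Dhap5 it was -0.25 (95% interval -0.64 to 0.13, limma adjusted p = 0.239). It was -0.44 with median-of-ratios scaling of the libraries (limma adjusted p = 0.0359) and -0.96 after quantile normalization (limma adjusted p = 0.000234). Leaving out 1 library gave -0.45 (limma adjusted p = 0.0328) without Dhap5 replicate 2 and -0.10 (limma adjusted p = 0.687) without Dhap5 replicate 1, the ends of the range. None of these reached the minimum change of 1.

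**Figure D2:**
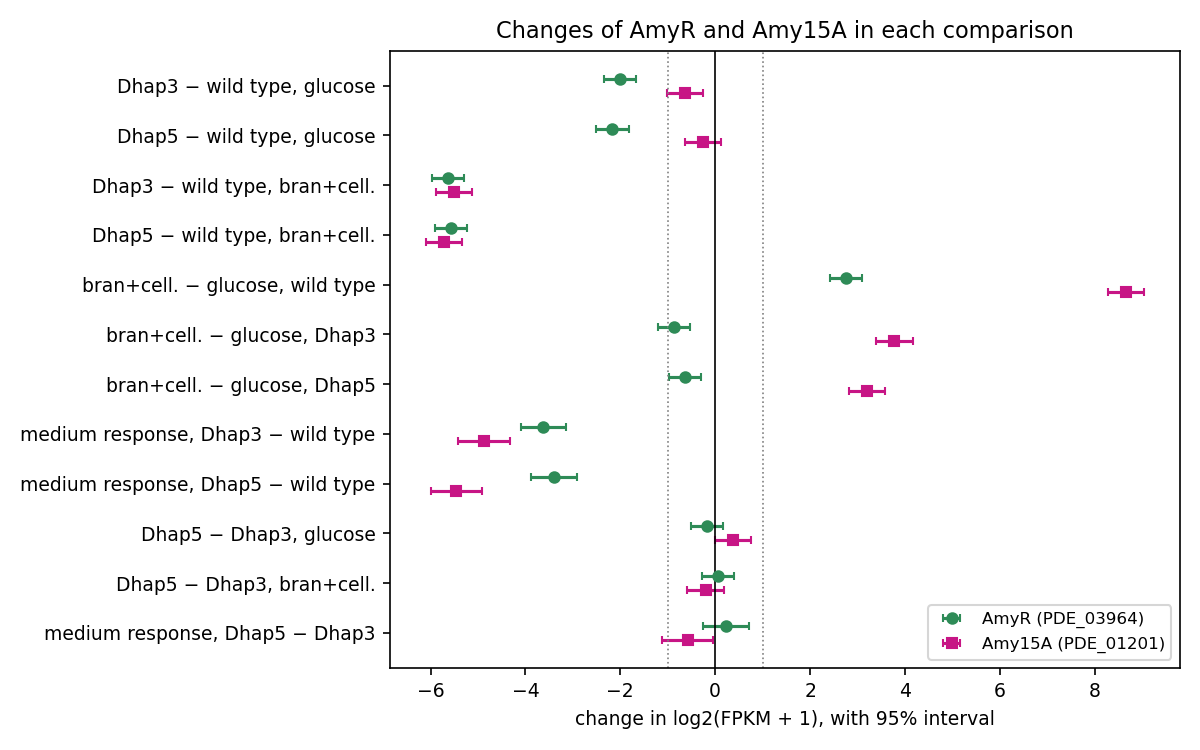
Changes of AmyR (circles) and Amy15A (squares) in log2(FPKM + 1) for the 12 comparisons of the fit, with 95% intervals from limma; dotted lines mark the minimum change of 1 in each direction. The changes of both genes in the deletion strains on bran and cellulose lie between -5.71 and -5.51, while on glucose AmyR lies beyond -1 and Amy15A at -0.64 and -0.25 (-1.13 in Dhap3 after quantile normalization).

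The response to the medium was then compared within each strain. In wild type both genes rose on bran and cellulose. AmyR was at 328.8 ± 30.8 FPKM there and at 47.67 ± 1.43 FPKM on glucose (SD, n = 3 each), a ratio of 6.9 between means, and its change was 2.76 (SE 0.158, limma adjusted p = 3.54e-10). Amy15A was at 1701 ± 201 FPKM there and at 3.21 ± 0.166 FPKM on glucose, a ratio of 530.0, and its change was 8.65 (SE 0.179, limma adjusted p = 2.56e-15). In this comparison 23.2% of the tested genes were called higher, and 14 genes had a higher change than Amy15A against 617 with a higher change than AmyR. These ranks depend on the added 1, which lowers the change most for genes near 0 FPKM on glucose.

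In the deletion strains Amy15A rose on bran and cellulose, while AmyR had lower values there that were not called. The responses of the 2 genes still lay closer together than in wild type. The response of Amy15A minus that of AmyR was 4.65 in Dhap3 and 3.84 in Dhap5, against 5.90 in wild type. Amy15A still rose on bran and cellulose, where it was at 36.6 ± 7.39 FPKM, against 1.72 ± 0.386 FPKM on glucose, in Dhap3 (SD, n = 3 each). Its change there was 3.78 (SE 0.179, limma adjusted p = 5.89e-11), with 18.6% of the tested genes called higher. In Dhap5 Amy15A was at 31.44 ± 3.89 FPKM on bran and cellulose and at 2.6 ± 0.932 FPKM on glucose. The change was 3.20 (SE 0.179, limma adjusted p = 5.58e-10), with 13.8% of the tested genes called higher. The ratio between the means of the media was thus 21.2 in Dhap3 and 12.1 in Dhap5, against 530.0 in wild type.

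AmyR had lower values on bran and cellulose than on glucose in both deletion strains, with no overlap between the media. It averaged 5.67 FPKM on bran and cellulose and 11.29 FPKM on glucose in Dhap3, a change of -0.87 (SE 0.158, 95% interval -1.21 to -0.53, limma adjusted p = 0.000166). In Dhap5 it averaged 6.04 FPKM on bran and cellulose and 9.95 FPKM on glucose, a change of -0.64 (95% interval -0.98 to -0.30, limma adjusted p = 0.00243). Neither reached the minimum change of 1, which 13.6% of the tested genes passed downward in Dhap3 and 11.1% in Dhap5. Without a minimum change 6096 of the 8681 tested genes were called in Dhap3 and 5452 in Dhap5, in either direction. A difference at that standard is thus common. The change of AmyR in Dhap3 was -1.02 and was called without replicate 2 of that strain on glucose, the library with the highest FPKM total. It was -1.37 and called after quantile normalization. Among the 2017 genes that rose with this medium in wild type, 115 were called lower there in Dhap3 and 914 were not called, and 96 were called lower in Dhap5 and 1130 were not called.

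The difference of these responses between strains was tested as an interaction. The response of AmyR to bran and cellulose was lower in Dhap3 than in wild type (interaction -3.62, SE 0.224, limma adjusted p = 2.65e-09). In Dhap5 the interaction was -3.40 (SE 0.224, limma adjusted p = 5.44e-09). For Amy15A the interaction was -4.88 (SE 0.253, limma adjusted p = 3.78e-10) in Dhap3 and -5.46 (SE 0.253, limma adjusted p = 1.02e-10) in Dhap5. Negative interactions were called for 17.2% of the tested genes in Dhap3 and 19.4% in Dhap5, so the direction itself is common. With 0.1 added in place of 1, the interactions of Amy15A were -4.67 and -5.41.

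**Figure D3:**
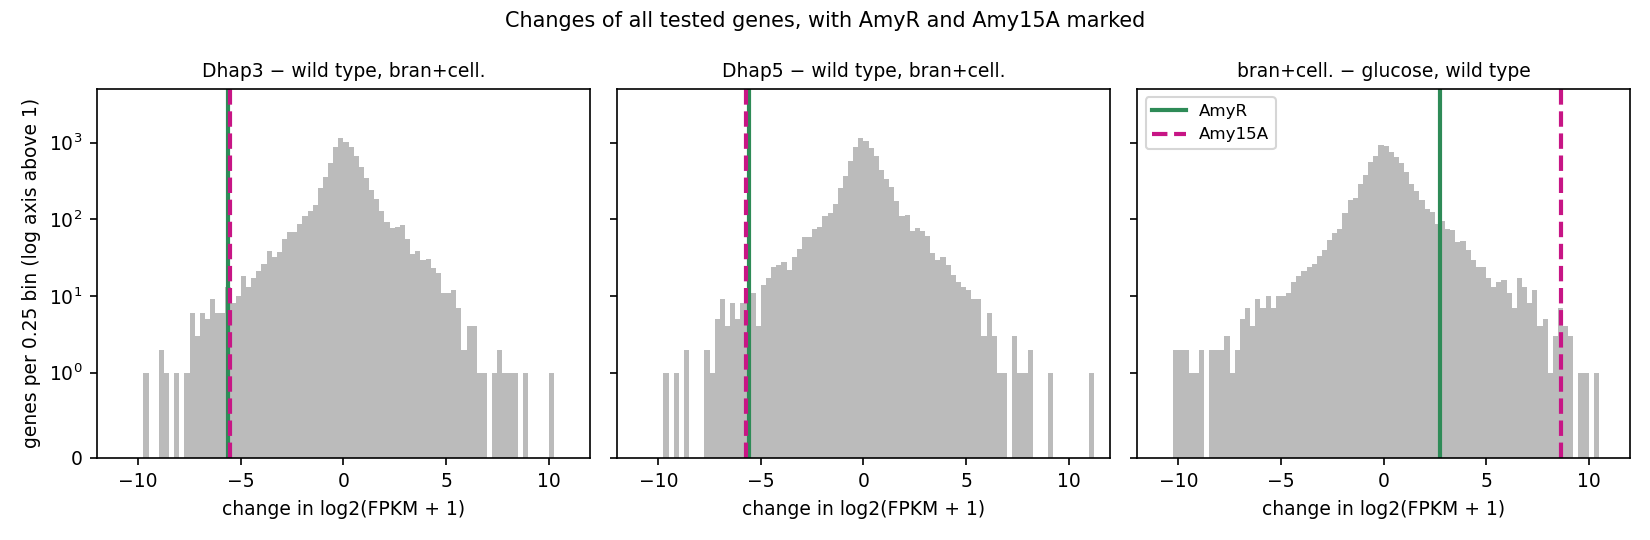
Distribution of the changes of all 8681 tested genes in log2(FPKM + 1), in bins of 0.25 with the number of genes on a log axis above 1, for each deletion against wild type on bran and cellulose and for bran and cellulose against glucose in wild type. Lines mark AmyR (solid) and Amy15A (dashed), which lie together in the lower tail of both deletion comparisons and apart in the wild type response, at 2.76 and 8.65.

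The order of the 6 groups was not the same for the 2 genes. AmyR was highest in wild type on bran and cellulose, followed by wild type on glucose, Dhap3 and Dhap5 on glucose, and Dhap5 and Dhap3 on bran and cellulose. Neighbours in this order did not overlap, except for the 2 deletion strains on glucose and the 2 on bran and cellulose. Amy15A was highest in wild type on bran and cellulose, followed by Dhap3 and Dhap5 on that medium, then wild type, Dhap5 and Dhap3 on glucose. The 2 deletion strains overlapped on bran and cellulose, and Dhap5 on glucose overlapped both of its neighbours. The step from Dhap5 on bran and cellulose to wild type on glucose was a difference of 2.94 (SE 0.179, limma adjusted p = 6.16e-10). So Amy15A in the deletion strains on bran and cellulose stayed above its wild type level on glucose, whereas AmyR in the same libraries lay under its own.

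Direct comparison of Dhap5 with Dhap3 called neither gene. On bran and cellulose, where 0.472% of the tested genes were called, the difference was 0.06 (95% interval -0.28 to 0.40, limma adjusted p = 0.953) for AmyR and -0.20 (95% interval -0.58 to 0.18, limma adjusted p = 0.745) for Amy15A. On glucose, where 4.01% were called, it was -0.16 (95% interval -0.50 to 0.17, limma adjusted p = 0.498) for AmyR and 0.38 (95% interval -0.00028 to 0.76, limma adjusted p = 0.149) for Amy15A. The medium response of Amy15A in Dhap5 minus that in Dhap3 was -0.58 (95% interval -1.12 to -0.04, limma adjusted p = 0.133), and that of AmyR 0.23 (95% interval -0.25 to 0.70, limma adjusted p = 0.519), with 4.70% of the tested genes called. Without 1 library the differences on glucose ran from -0.31 (without Dhap3 replicate 2) to -0.03 (without Dhap5 replicate 2) for AmyR and from 0.18 (without Dhap5 replicate 2) to 0.54 (without Dhap5 replicate 1) for Amy15A. The difference in medium response ran from 0.09 to 0.38 for AmyR and from -0.74 to -0.39 for Amy15A, and on bran and cellulose Amy15A ran from -0.33 to -0.05 and AmyR from -0.06 to 0.21, with no call in any. After quantile normalization AmyR differed by -0.39 on glucose (limma adjusted p = 0.0472) and by 0.51 in medium response (limma adjusted p = 0.0726). Neither was called. Differences up to the bounds of the 95% intervals above remain compatible with the data.

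The level of Amy15A relative to AmyR was followed within each library, since the scaling of a library cancels in the FPKM ratio. On bran and cellulose the FPKM ratio of Amy15A to AmyR was 7.4, 5.97 and 5.89 in Dhap3, 5.37, 4.69 and 5.81 in Dhap5 and 4.92, 5.08 and 5.5 in wild type. The Dhap5 range spans that of wild type, and every Dhap3 library lay above every wild type and every Dhap5 library. The mean levels of the 2 genes were 46.5 to 58.0 times lower in the deletion strains than in wild type. On glucose the ratio was 0.113, 0.198 and 0.157 in Dhap3, 0.162, 0.456 and 0.221 in Dhap5 and 0.062, 0.0672 and 0.073 in wild type. There every library of both deletion strains lay above every wild type library. Neither gene averaged higher in a deletion strain than in wild type on glucose. AmyR was at 23.7% and 20.9% of its wild type mean in Dhap3 and Dhap5, and Amy15A at 53.7% and 81.1%. Amy15A was also low in all libraries on glucose, at 1.32 to 3.64 FPKM. The absolute size of the FPKM ratios of Amy15A to AmyR depends on the gene lengths used for FPKM, but their order across groups does not.

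On the log2(FPKM + 1) scale the mean difference between Amy15A and AmyR was 2.48 ± 0.19 in Dhap3, 2.22 ± 0.117 in Dhap5 and 2.37 ± 0.0833 in wild type on bran and cellulose (SD, n = 3 each), and on this scale Dhap3 (2.35 to 2.70) overlapped wild type (2.30 to 2.46). On glucose it was -2.17 ± 0.306, -1.62 ± 0.604 and -3.53 ± 0.0987 in the same order of strains. Dhap3 minus wild type was 0.11 on bran and cellulose and 1.37 on glucose, and Dhap5 minus wild type was -0.15 and 1.91. Because of the added 1, the scaling of a library does not fully cancel on this scale. The tests below use it, and the FPKM ratios themselves were not tested. Their averages over media join unlike differences, small on bran and cellulose and larger on glucose. Within 1 medium 3 libraries against 3 cannot give a two-sided exact p under 0.1. Averaged over both media, with strain labels exchanged within medium, Dhap3 differed by 0.74 (exact permutation test, two-sided, p = 0.025, adjusted over 3 tests 0.0375), and the adjusted p was 0.0675 without replicate 1 of Dhap3, 0.06 without replicate 1 of wild type and 0.0525 without replicate 2 of wild type, each on bran and cellulose. Dhap5 differed by 0.88 (exact permutation test, p = 0.095, adjusted 0.095). Bran and cellulose minus glucose, averaged over strains, gave 4.79 (exact permutation test, p = 0.00025, the smallest the design allows, adjusted 0.00075), made up of 4.65 in Dhap3, 3.84 in Dhap5 and 5.90 in wild type.

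**Figure D4:**
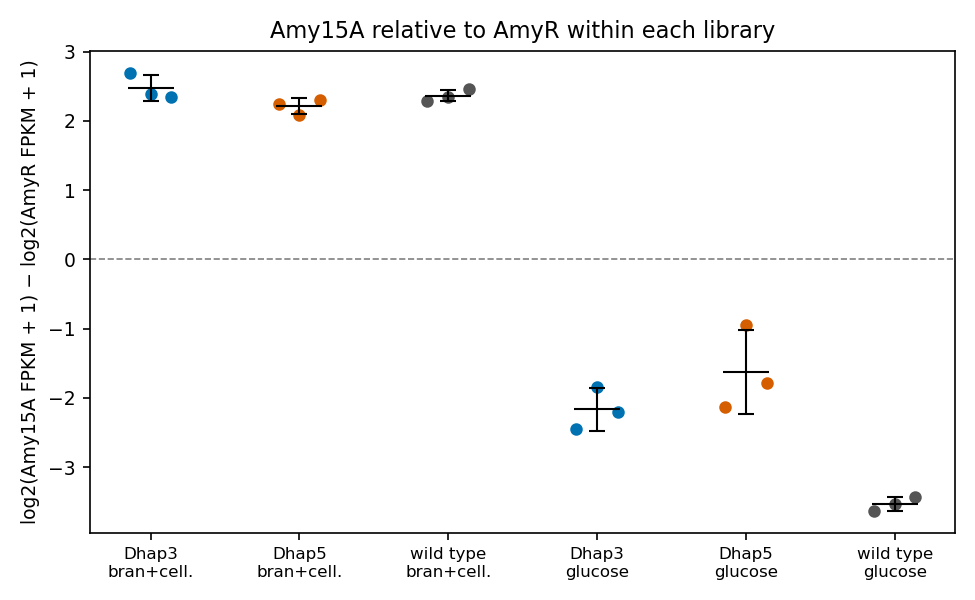
Difference between Amy15A and AmyR in log2(FPKM + 1) in each library, by group; points are libraries, horizontal bars the mean and error bars the SD (n = 3). All libraries on bran and cellulose lie between 2.08 and 2.70, and on glucose the deletion libraries lie above the wild type libraries, which are at -3.63 to -3.43.

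Library scaling affects the comparisons unequally. With median-of-ratios scaling the median over all tested genes shifted by -0.13 and -0.222 in Dhap3 and Dhap5 on glucose, and by -0.126 for the medium response of wild type. For the Dhap5 interaction the shift was 0.218. Under that scaling AmyR changed by -2.14 and -2.40 in Dhap3 and Dhap5 on glucose, and by 2.62 between the media in wild type. On bran and cellulose the shifts were -0.033 and -0.00924, and AmyR changed by -5.66 and -5.57 and Amy15A by -5.55 and -5.72. No call of either gene changed.

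Genes with the pattern most like each member were sought among 7602 other tested genes that averaged 10 FPKM or more in some group. Likeness was the root mean square difference between the 6 group means in log2(FPKM + 1), each gene centred on its own mean. PDE_02824 was nearest to AmyR, at 0.323 log2 units. It averaged 1.41 ± 0.0866 and 1.64 ± 0.101 FPKM in Dhap3 and Dhap5 on bran and cellulose, against 144.2 ± 7.49 FPKM in wild type, and 3.81 ± 0.687 and 5.48 ± 0.662 FPKM in these deletions on glucose, against 30.62 ± 5.02 FPKM in wild type. PDE_05882 was next, at 0.347, with 131.4 ± 12.2 and 124.9 ± 4.16 FPKM in Dhap3 and Dhap5 on bran and cellulose, against 3673 ± 467 FPKM in wild type. On glucose PDE_05882 averaged 214.4 ± 89.7 and 188.7 ± 63.6 FPKM in Dhap3 and Dhap5, against 1203 ± 62 FPKM in wild type. Both genes had their highest mean in wild type on bran and cellulose and their lowest means in the deletion strains there, a likeness they were chosen for. For PDE_05882 the media overlapped in both deletion strains, with changes of -0.60 (limma adjusted p = 0.076) in Dhap3 and -0.53 (limma adjusted p = 0.123) in Dhap5.

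PDE_00752 was nearest to Amy15A, at 0.481 log2 units, with 7.53 ± 0.575 and 11.42 ± 1.67 FPKM in Dhap3 and Dhap5 on bran and cellulose, against 277.3 ± 5.89 FPKM in wild type. It was at or under 0.48 FPKM in every library on glucose. PDE_05118, at 0.603, averaged 365.3 ± 22.9 and 361.3 ± 22.9 FPKM in Dhap3 and Dhap5 on bran and cellulose, against 18770 ± 2040 FPKM in wild type. AmyR and Amy15A were 2.46 log2 units apart: 6074 of the 7602 genes were nearer to AmyR than Amy15A was, and 464 were nearer to Amy15A than AmyR was. This distance grows with the size of changes, so a gene that hardly changes also counts as nearer to AmyR than Amy15A was. The Pearson correlation of AmyR with Amy15A over the 6 group means was 0.642. The choice of the nearest genes depends on the measure: with Pearson correlation over the 6 group means 0 of the 2 genes named for each member were chosen again, and with 0.1 added in place of 1, 1 of the 2. The files pair none of these tags with a name.

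**Figure D5:**
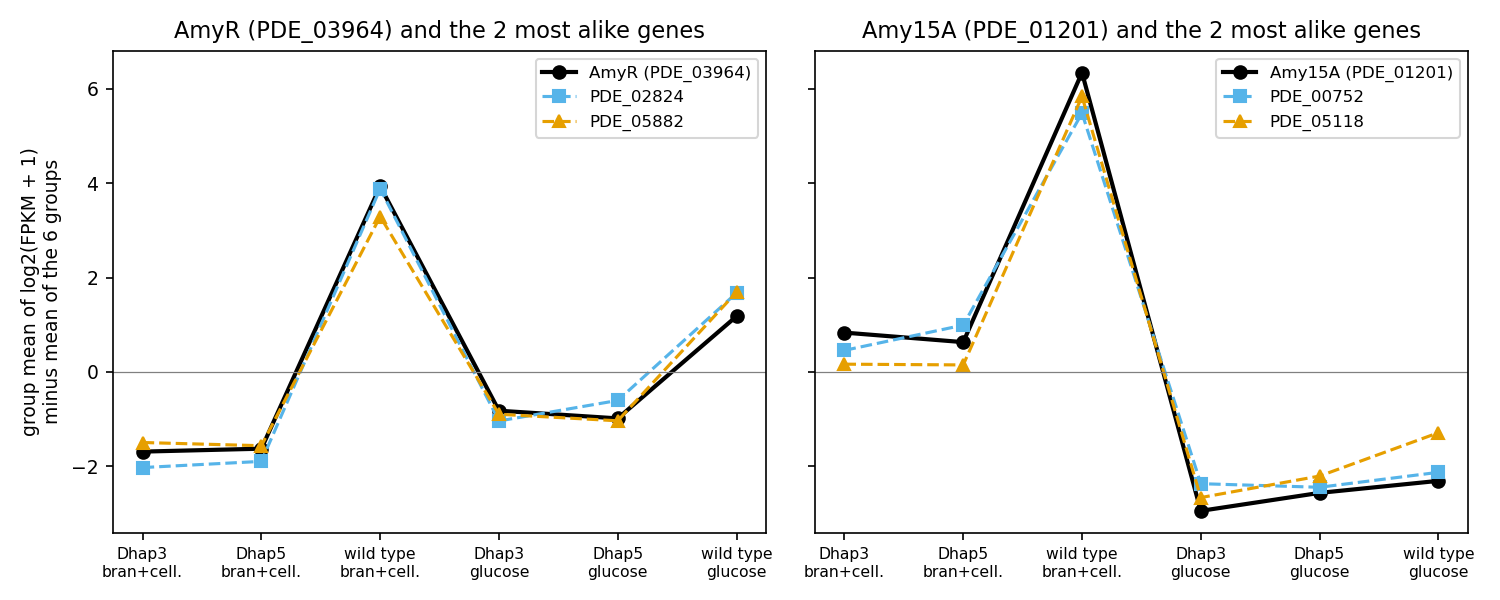
Group means of log2(FPKM + 1), centred on the mean of the 6 groups, for AmyR with PDE_02824 and PDE_05882 (left) and for Amy15A with PDE_00752 and PDE_05118 (right). AmyR and its 2 alike genes have their minimum in the deletion strains on bran and cellulose, Amy15A and its 2 alike genes on glucose.

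No list of further starch genes could be formed, since the table gives no names. Genes whose tag number lies within 5 of a member were summarised instead, without a claim on their position in the genome. Of the 10 tags around AmyR, 8 were in the table and 7 were tested. On bran and cellulose 1 of the 7 was called lower and 0 higher in each deletion, beside 13.4% lower and 16.7% higher of all tested genes in Dhap3 and 13.2% and 16.4% in Dhap5, so the 1 lower call is near the share over all genes. The 7 had medians of -0.124 in Dhap3 and 0.0269 in Dhap5; over all genes they were 0.0509 and 0.0387. The gene called lower, PDE_03966, was singled out after its values were seen. It averaged 13.91 ± 0.202 and 11.46 ± 0.773 FPKM in Dhap3 and Dhap5 on bran and cellulose, against 202.9 ± 33 FPKM in wild type. Its interaction with the medium was -0.50 (limma adjusted p = 0.0221) in Dhap3 and -0.64 (limma adjusted p = 0.00466) in Dhap5. Both were under the minimum change of 1 and so not called. On glucose PDE_03966 averaged 8.96 ± 0.872 and 8.18 ± 0.531 FPKM in Dhap3 and Dhap5, against 95.11 ± 14.8 FPKM in wild type.

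Around Amy15A 8 of the 10 tags were tested, and 2 were called lower and 2 higher in each deletion on bran and cellulose, where 13.4% and 13.2% of all tested genes were called lower and 16.7% and 16.4% higher in Dhap3 and Dhap5. Between the media in wild type 1 of the 8 was called higher and 5 lower (23.2% and 13.9% of all tested genes), with a median change of -1.87 where that of all genes was 0.157. The 1 gene called higher was PDE_01200, the tag just before Amy15A, also singled out after its values were seen. PDE_01200 stood at 3.9, 3.65 and 2.4 FPKM in Dhap3, at 2.66, 2.72 and 1.75 FPKM in Dhap5 and at 176.41, 189.26 and 190.08 FPKM in wild type on bran and cellulose. On glucose it stood at no more than 1.02 FPKM in any library. Its change on bran and cellulose was -5.45 (SE 0.159, limma adjusted p = 2e-13) in Dhap3 and -5.80 (SE 0.159, limma adjusted p = 1.01e-13) in Dhap5, beside -5.51 and -5.71 for Amy15A. On glucose PDE_01200 had changes of 0.48 (SE 0.159, limma adjusted p = 0.0168) in Dhap3 and 0.42 (SE 0.159, limma adjusted p = 0.0352) in Dhap5, both under the minimum change, where those of Amy15A were -0.64 and -0.25. The means of PDE_01200 were 0.84 FPKM in Dhap3, 0.76 FPKM in Dhap5 and 0.32 FPKM in wild type. At such low values the added 1 shrinks the change, so its size is not well measured. Its medium response was 1.22 in Dhap3 and 0.93 in Dhap5, against 7.15 in wild type, beside 3.78, 3.20 and 8.65 for Amy15A. In wild type on glucose PDE_01200 averaged 0.32 FPKM and Amy15A 3.21 FPKM. The added 1 therefore lowers the responses of PDE_01200 more, and these values do not order the 2 genes by fold change in FPKM. Strand handling and gene overlap are not stated, and their part in the values of these 2 tags was not tested.

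Over the 4 comparisons of a deletion with wild type, 236 genes (2.72% of those tested) had the same calls as AmyR, that is lower in both deletions on both media, and 549 (6.32%) had those of Amy15A, lower in both deletions on bran and cellulose and not called on glucose. With the 3 responses to the medium added, 42 genes (0.484%) shared all 7 calls of AmyR and 51 (0.587%) those of Amy15A. These counts include the member itself.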

How the data were processed

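The unit of the deposited table is FPKM, per the file headers, rounded to 2 decimals. Read counts were not used. Per the labels' protocols, cDNA was cut with NlaIII and MmeI into short tags, for which scaling by gene length would shift levels between genes but leave the ratio of 1 gene between libraries as it is. Aligner, build and gene models: not given in the sources used here. The medium with bran has another abbreviation in the table than in the sample titles and was matched as the only medium other than glucose; 0 columns were left unmapped. Relative depth was sought in the low values: the best step gathered at most 9.59% of low genes within 0.01 log2 units, so it was not recovered. Of 9277 identifiers 0 matched the 9964 genes of the RefSeq table of strain HP7-1, so no sequence or position is given.

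A limma 3.58.1 model (R 4.3.3, intensity trend) with 1 mean per group was fitted to log2(FPKM + 1) of the 18 libraries. Benjamini-Hochberg adjustment ran over the 8681 genes that passed the filter of 1 FPKM in 3 libraries. Exact permutation tests used Python 3.11.15. The rule for named genes took both members and the 2 genes most like each; any other gene named was chosen after its values were seen. The members and lists were chosen with earlier results of these data known.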

Additional observations from a re-analysis of the deposited data

Results flagged for a closer look

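The response to bran and cellulose differed between each deletion strain and wild type for both genes, by the interaction test of limma. The interaction of AmyR (PDE_03964) was -3.624 in Dhap3 and -3.399 in Dhap5: in wild type it rose on bran and cellulose, and it had lower values there than on glucose in both deletion strains. The lower values in the deletion strains were under the minimum change and so not called. The interaction of Amy15A (PDE_01201) was -4.875 in Dhap3 and -5.458 in Dhap5: it rose on bran and cellulose in all 3 strains, by 3.78 and 3.20 in Dhap3 and Dhap5 against 8.65 in wild type. Both deletions were set against the same wild type libraries.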

How the results depend on the processing

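For the 12 changes of each gene, 187 of 192 values under a lower pseudocount, other filters, other scalings, a replicate block, a fit of the compared groups only and no minimum change kept their direction and call, and 5 became called. After quantile normalization these were Amy15A in Dhap3 on glucose (-1.126) and AmyR between the media in Dhap3 (-1.369). Without a minimum change they were Amy15A in Dhap3 on glucose (-0.6365) and AmyR between the media in Dhap3 (-0.8674) and Dhap5 (-0.6423).

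Leaving out 1 library at a time kept direction and call in 178 of 180 values. AmyR between the media in Dhap3 ran from -1.015 to -0.7513, and AmyR in Dhap5 against Dhap3 on bran and cellulose, never called, ran from -0.06236 to 0.2129, below 0 without replicate 2 of Dhap5. The difference between Amy15A and AmyR in log2(FPKM + 1), in Dhap3 minus wild type over both media, ran from 0.659 to 0.8111. Its adjusted exact p was 0.0675 without replicate 1 of Dhap3, 0.06 without replicate 1 of wild type and 0.0525 without replicate 2 of wild type, all on bran and cellulose.

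No pairing of libraries by replicate number was established: the deviations of same-numbered libraries correlated above 0.1 in 1 of 45 pairs. Of 18 libraries 9 correlated best with their own number, which some would do without pairing. The check cannot exclude pairing. With a replicate block AmyR in Dhap3 on bran and cellulose changed by -5.626 (limma adjusted p = 4.68e-12), and no call of either gene changed.

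Over the 12 comparisons 41 to 3226 genes were called, and 188 to 6148 without a minimum change. Between the deletion strains a fit of the compared groups only called 135 genes in place of 348 on glucose and 18 in place of 41 on bran and cellulose, where leaving out replicate 1 or 2 of Dhap3 gave 26 and 25. Depth is unknown, also for the low values of Amy15A on glucose, at 1.32 to 3.64 FPKM.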
